A study of Mus musculus with 26 samples.

Results

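Heat shock genes were followed in mouse motor neuron spheroids that had received mechanical stretch or medium from muscle. The 10 genes, of 56941 in the expression tables, were selected by symbol: the small heat shock protein gene Hspb1, its processed pseudogene Hsp25-ps1, the HSP70 genes Hspa1a, Hspa1b and Hspa8, the HSP110 gene Hsph1, the J-domain gene Dnajb1, the HSP90 gene Hsp90aa1, the regulator Hsf1 and the co-chaperone gene Bag3. All 10 were present, and all 10 passed the low-count filter that left 14730 genes in the fit. Hsp25-ps1 had no counts in the 5 control libraries of the fit, so it passed through the other groups.

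The cells were HBG3 mouse embryonic stem cells, a single HB9::GFP line (GFP under the promoter of the motor neuron gene HB9) whose genotype is labelled as heterozygous blastocysts. They were expanded on a feeder layer and differentiated with puromorphamine and retinoic acid, with ciliary and glial derived neurotrophic factors from day 5, and the spheroids formed by about day 8 were seeded on fibrin. The 26 libraries were labelled as mechanical stimulation (called actuated here, a magnetic silicone array moved at 4 Hz for 30 min each day, n = 4), mechanical control (called static, the same array never moved, n = 4), high-intensity biochemical treatment (n = 6), low-intensity biochemical treatment (n = 6) and biochemical control (n = 6). Both biochemical treatments used medium that had been on optogenetic muscle, which in one case was stimulated with light and in the other was not; the labels do not tie these media to the words high and low intensity, so the groups are named by intensity alone. Nothing in the labels says that replicates came from separate differentiations, so p-values measure the spread between these samples.

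The 5 libraries left out of the fit were static replicate 3, control replicate 4, replicates 4 and 5 of high intensity and replicate 6 of low intensity, which held fewer than 1000000 counts on protein-coding genes (1151 to 457670). The fit used the other 21 libraries, 4 actuated, 3 static, 4 high-intensity, 5 low-intensity and 5 control, with 1551334 to 13162635 counts each. The array libraries were deeper (7269276 to 13162635 counts) than the medium and control libraries (1551334 to 3971348). Levels are given as counts per 1000000 (CPM) scaled by TMM, which allows comparison between libraries, or as transcripts per 1000000 (TPM), which are per length and allow comparison between genes. Summed markers of neurons (8 genes) lay between 5912 and 12055 CPM and those of motor neurons (8 genes) between 373 and 866 CPM, while the 5 markers of microglia and blood summed to at most 7.95 CPM in a library of the fit, with C1qa and Hbb-bt at 0 in all 21.

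Heat shock proteins are chaperones that hold, refold or hand over unfolded proteins. HSP70 proteins work with J-domain partners, which bring clients and start ATP hydrolysis, and with nucleotide exchange factors such as HSP110 and BAG proteins, while HSP90 acts later on more folded clients and small heat shock proteins hold unfolded chains without ATP. Under heat or proteotoxic stress the factor HSF1 binds heat shock elements and raises the inducible genes, whereas Hspa8 is made constitutively. Motor neurons are known for a high threshold of this response, and HSPB1 is a protein of axons and of muscle in which mutations cause inherited motor neuropathy.

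The sequences of Hspb1 and Hsp25-ps1 are shown first, because they set how far the counts of the pair can be told apart. Hspb1 lies at chr5:135887919-135889563 on the plus strand, and Hsp25-ps1 at chr13:45078498-45079127 on the minus strand (GRCm38, GENCODE M21), where it is annotated as a processed pseudogene. The 630 bases of Hsp25-ps1 aligned without a gap to the coding sequence of Hspb1 with 626 identities (99.37%). The 4 substitutions, counted from the first base of the start codon with the Hspb1 base first, were C6T, G559A, T561C and T609C. Both ends are printed 5′ to 3′, bases 1 to 60 and then 541 to 630, with the substituted bases in capitals.
Hspb1, first stretch: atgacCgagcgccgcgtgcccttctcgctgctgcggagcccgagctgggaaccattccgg
Hsp25-ps1, first stretch: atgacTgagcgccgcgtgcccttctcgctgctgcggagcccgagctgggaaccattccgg
Hspb1, last stretch: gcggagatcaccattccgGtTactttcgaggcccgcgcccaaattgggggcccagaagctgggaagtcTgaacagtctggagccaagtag
Hsp25-ps1, last stretch: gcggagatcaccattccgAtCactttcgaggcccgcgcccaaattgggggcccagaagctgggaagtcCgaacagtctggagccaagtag

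Of the 581 windows of 50 bases (the read length) in Hsp25-ps1, 503 (86.57%) are also in an Hspb1 transcript letter for letter. In the 903-base Hspb1 transcript, 503 of 854 windows (58.9%) are shared with the pseudogene, so the rest of Hspb1 can be told from it. Hspa1a (chr17:34969190-34972156, minus strand) and Hspa1b (chr17:34956436-34959238, minus strand) are a second near-identical pair: 1716 of the 2918 windows of the Hspa1a transcript (58.81%) are also in that of Hspa1b. How the authors' counting placed reads that fit both copies could not be learned from the labels or files (not given in the sources used here), and counts within each pair are therefore uncertain.

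Promoters were available from RefSeq (GRCm38.p6) for 6 of the 10 genes, in 8 windows that run from 250 bases before to 50 after the start. The core of the heat shock element was searched as GAANNTTC or TTCNNGAA, each of which reads the same on either strand, with overlapping matches counted. It was found in 6 of the 8 windows (5 of 6 genes), and in 4946 of 32851 windows of all genes (15.1%). A match is a description of the letters and not a bound site. The 150 bases before the start of Hspb1 (chr5:135887769-135887918, plus strand) and of Hspa1a (chr17:34972157-34972306, minus strand) are printed with matches in capitals, since these are the member whose counts differed from the control and the classical inducible member whose counts did not pass a test.
Hspb1: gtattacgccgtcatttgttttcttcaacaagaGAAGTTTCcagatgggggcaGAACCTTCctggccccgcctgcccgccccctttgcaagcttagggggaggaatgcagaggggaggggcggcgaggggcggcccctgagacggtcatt
Hspa1a: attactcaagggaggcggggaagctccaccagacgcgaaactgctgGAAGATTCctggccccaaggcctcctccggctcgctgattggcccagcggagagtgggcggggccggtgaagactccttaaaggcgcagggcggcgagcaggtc
The Hspb1 stretch holds 2 matches, which begin 117 and 97 bases before the start, a number reached by 1.96% of all windows. The Hspa1a stretch holds 1 match, 104 bases before the start, and differs from the same stretch of Hspa1b at 1 of 150 bases. Bag3 held 1 match, which lay after the start, and neither Dnajb1 window held one. Each Hsph1 window held 3 matches, more than that of Hspb1, on both sides of the start. At low intensity against control the log2 difference of Hsph1 was 0.06 (not called). A link between matches and levels was not tested.

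Per length, Hsp90aa1 and Hspa8 stood far above the other 8 genes. Over the 21 libraries Hsp90aa1 had a median of 2820 TPM (range 1130 to 3727) and Hspa8 of 1546 TPM (796 to 2164), and Hsp90aa1 was above Hspa8 in 21 of 21 libraries. Hsph1 followed with 97.0 TPM and Hspb1 with 89.5 TPM, and Hsph1 was the higher of the pair in 16 of 21 libraries, so their order was not fixed. Bag3 (19.0 TPM), Dnajb1 (13.1 TPM) and Hsf1 (9.56 TPM) came next. Hsp25-ps1 (8.33 TPM), Hspa1a (8.23 TPM) and Hspa1b (7.69 TPM) had the lowest medians. Hsf1, Hsp25-ps1, Hspa1a and Hspa1b changed places between libraries: Hsf1 was above Hsp25-ps1 in 10 of 21, Hsp25-ps1 above Hspa1a in 9 and Hspa1a above Hspa1b in 13. The place of Hsp25-ps1 also differed by group, since its median was 0 TPM in the control and 25.1 TPM at low intensity, where Bag3 had 23.4 TPM. Within a gene, the highest library exceeded the lowest 1.18-fold in CPM for Hspa8 and 5.13-fold for Hspb1, the widest of the 9 genes that had counts in every library.

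**Figure D1:**
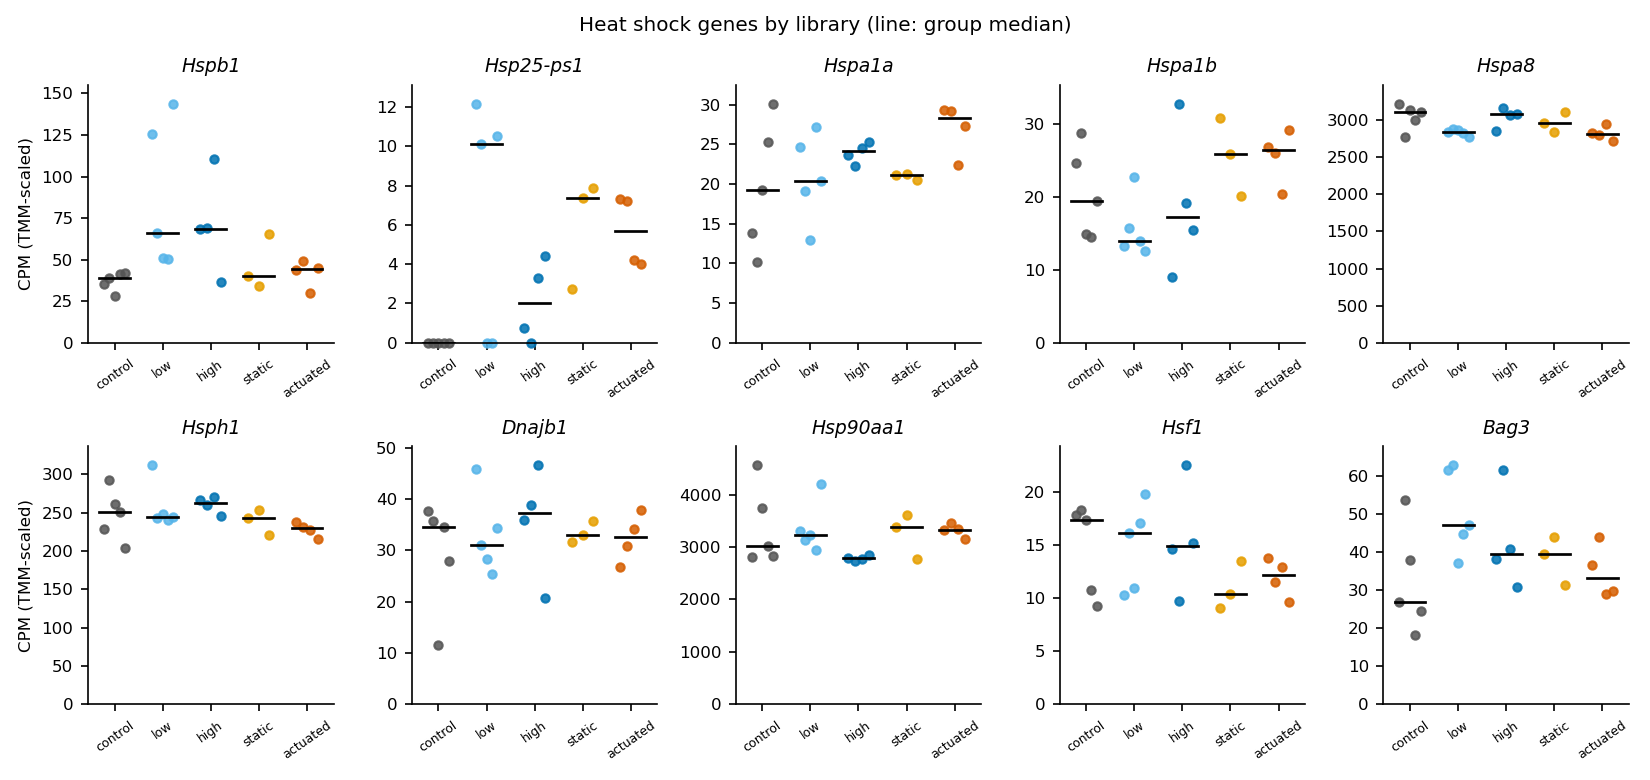
TMM-scaled CPM (linear axis from 0) of each of the 10 genes in the 21 libraries of the fit, by group, with a line at the group median. Hspb1 is higher in all 5 low-intensity libraries (50.6 to 144 CPM) than in all 5 control libraries (28.1 to 42.0 CPM), Hsp25-ps1 is at 0 in all 5 controls, and most groups of the other 8 genes overlap. The share of all genes whose groups do not overlap is not given.

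Hspb1, which holds unfolded proteins and binds actin filaments and intermediate filaments, was the member with the largest difference that could be measured as a fold. In the low-intensity group its level was 50.6, 51.1, 65.9, 125 and 144 CPM, against 28.1, 35.4, 38.9, 41.2 and 42.0 CPM in the control. The groups did not overlap: all 5 low-intensity libraries lay above every control, and replicates 1 and 5 stood well above the other low-intensity libraries. The share of all genes whose groups separate in this way is not given here, so the separation only describes these libraries. The means were 87.4 ± 44.1 CPM (SD, n = 5) and 37.1 ± 5.67 CPM (SD, n = 5), and the log2 difference was 1.25 (SE 0.29, adjusted p = 0.0443, edgeR quasi-likelihood test, Benjamini-Hochberg over 14730 genes). In this comparison 2 of the 10 members were called higher, Hspb1 and Hsp25-ps1, and none lower, while 0.597% of all genes tested were called. Hsp25-ps1 is no support here, because it could enter the fit only through groups in which it had counts. With the counts of Hspb1 and Hsp25-ps1 summed, the log2 difference was 1.35 (adjusted p = 0.0358, edgeR), so the difference was present in the pair whatever the split of its reads.

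The call on Hspb1 lay near its threshold. It was kept without static replicate 4, high-intensity replicate 3 or 6, low-intensity replicate 3 or 4 or control replicate 6, and lost without any one of the other 15 libraries (adjusted p from 0.0506 to 0.140, edgeR), while its log2 difference stayed between 1.00 and 1.39. With all 26 libraries the difference was 1.31 with an adjusted p of 0.346 (edgeR), and no member was called in any comparison.

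In the high-intensity group Hspb1 was at 36.4, 68.4, 68.9 and 110 CPM, so that 3 of 4 libraries lay above every control and replicate 6 lay within the control range. The log2 difference was 0.93 (SE 0.30, adjusted p = 0.130, edgeR), which did not pass the threshold, and leaving out 1 library moved it between 0.64 (without high-intensity replicate 3, adjusted p = 0.457, edgeR) and 1.16 (without high-intensity replicate 6, adjusted p = 0.0427, edgeR), the only one of 21 such fits that called it. None of the 10 members was called here by edgeR, 3 had an unadjusted p under 0.05 (15.9% of all genes did), DESeq2 called 1 (Hsp25-ps1) and limma voom 0, and 0.462% of all genes were called by edgeR. High and low intensity did not differ for Hspb1 beyond the spread (log2 difference -0.32, SE 0.30, adjusted p = 0.850, edgeR), and among the 10 members and all 14730 genes 0 were called in that comparison (0%, with 1 member and 7.68% of all genes at an unadjusted p under 0.05, and 0 members by DESeq2 and by limma voom).

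In both array groups Hspb1 overlapped the control. Static libraries had 34.0, 40.0 and 65.6 CPM and actuated libraries 29.9, 43.8, 44.9 and 48.9 CPM. The highest static library lay above every control, and the array groups overlapped each other. Static array against control gave a log2 difference of 0.32 (SE 0.32, adjusted p = 0.744, edgeR).

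Hsp25-ps1, a processed copy that is not counted among protein-coding genes, did not keep a fixed share of its parent's counts. Its counts in the control libraries of the fit were 0, 0, 0, 0 and 0, beside 123, 111, 73, 88 and 145 counts of Hspb1 in the same libraries. The actuated libraries had 56, 77, 38 and 33 counts (4.03 to 7.31 CPM) and the static libraries 24, 99 and 64 (2.71 to 7.89 CPM). Of the low-intensity libraries 3 had 44, 27 and 31 counts and 2 had 0, and the high-intensity libraries had 3, 0, 8 and 16 counts. Each of the 7 array libraries of the fit thus lay above every control, while both medium groups overlapped the control at 0. With all controls at 0, any count lies above them, and the array libraries were deeper.

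Since the control counts were all 0, folds can only be given as bounds against 3 counts over the 5 control libraries together (0.207 CPM). The pooled level, taken as measured, was above that limit 35.9-fold in the low-intensity, 29.8-fold in the static, 27.8-fold in the actuated and 10.4-fold in the high-intensity libraries. These bounds cover counting error in the control only, and not the spread between libraries. Without control replicate 1 they were 27.3-fold at low intensity, 22.6-fold for static and 21.1-fold for actuated libraries. High-intensity replicate 6 held 16 of the 27 counts of its group, and without it the bound was 6.00-fold. Hsp25-ps1 was called higher in low intensity against control (adjusted p = 0.0353, edgeR) and in static array against control (adjusted p = 0.0374, edgeR), tests of a gene that passed the low-count filter only through groups other than the control. In the latter it was the only one of the 10 members called, where 0.713% of all genes were called. High intensity against control did not pass (adjusted p = 0.104, edgeR), nor did high against low intensity (log2 difference -1.65, SE 0.97, adjusted p = 0.717, edgeR). The low-intensity call was lost without actuated replicate 1, low-intensity replicates 1, 2 or 5 or control replicates 1, 2, 3 or 5 (adjusted p from 0.0504 to 0.106, edgeR). The static call was lost without actuated replicates 1 or 4, any static replicate or any control replicate (adjusted p from 0.0505 to 0.148, edgeR). With all 26 libraries, which include 8 counts in control replicate 4, the fitted log2 differences were 2.31 at low intensity and 2.16 for the static array, neither called (adjusted p = 1 for both, edgeR).

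As a share of the counts of both copies, Hsp25-ps1 held 204 of 1700 counts in the actuated libraries (12%, 95% Clopper-Pearson interval 10.5 to 13.6%) and 187 of 1530 in the static ones (12.2%, 10.6 to 14.0%). It held 102 of 1384 counts at low intensity (7.37%, 6.05 to 8.88%) and 27 of 870 at high intensity (3.10%, 2.05 to 4.48%, and 1.52% without high-intensity replicate 6). In the control it held 0 of 540, which allows a share of up to 0.556% by a limit of 3 counts, and of up to 0.681% by the Clopper-Pearson interval. These intervals cover counting error only, since reads without molecular identifiers are not independent molecules, and the spread between libraries of a group was wider than they are. At low intensity, replicate 2 had 13.3% (8.95 to 18.8%) and replicate 3 had 0 of 150, which allows up to 2% by 3 counts and 2.43% by the exact interval. At high intensity, replicate 6 had 10.8% (6.31 to 17.0%) and replicate 2 had 0 of 170, which allows up to 1.76% and 2.15%.

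At the share pooled over the 7 array libraries of the fit (12.1%), the 5 controls would hold between 8.84 and 17.6 pseudogene counts each, and low-intensity replicates 3 and 4 would hold 18.2 and 9.68, where 0 were listed. The array and the other libraries differ in depth as well as in treatment, and the part of a difference in how reads were placed was not tested. One library outside the fit went the other way: control replicate 4, in which 78.4% of all counts were on ribosomal RNA, listed 8 counts for Hsp25-ps1 and 0 for Hspb1.

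**Figure D2:**
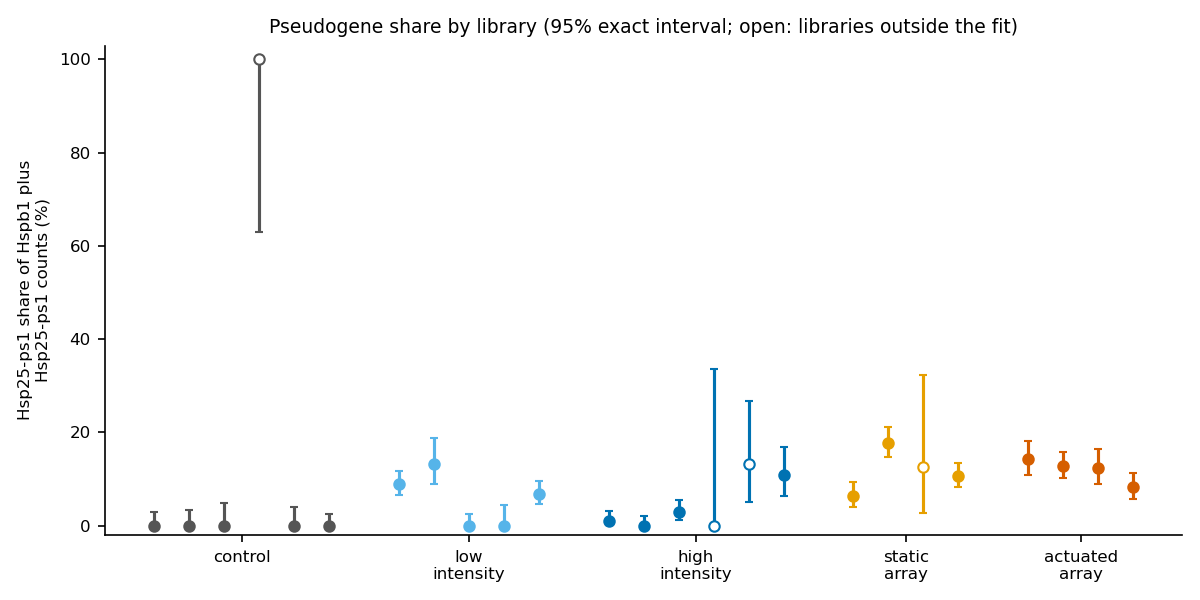
Share of Hsp25-ps1 in the counts of Hspb1 plus Hsp25-ps1 (percent) in the 25 libraries with any such counts, by group, with 95% exact Clopper-Pearson intervals; open circles are libraries outside the fit. All 5 controls of the fit are at 0%, the 4 actuated libraries lie between 8.23 and 14.3%, low-intensity libraries are split between 0 and 13.3%, and the open control circle at 100% rests on 8 counts.

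Hspa1a and Hspa1b, which encode the stress-inducible HSP70, were low in all groups. Hspa1a was at 22.4, 27.4, 29.2 and 29.4 CPM in the actuated libraries and at 20.5, 21.1 and 21.3 CPM in the static ones. These groups did not overlap, yet no member was called in this comparison, in which 0% of all genes were called and 0 members had an unadjusted p under 0.05 (0 by DESeq2 and by limma voom too). The share of all genes whose groups do not overlap is not given here, for this or the other comparisons. The separation of a single gene is therefore a description of its libraries and no result by itself. The high-intensity (22.3 to 25.3 CPM), low-intensity (12.9 to 27.2 CPM) and control (10.2 to 30.1 CPM) libraries overlapped. Hspa1b ranged from 14.5 to 28.7 CPM in the control, 9.08 to 32.8 with high and 12.6 to 22.8 with low intensity, and 20.2 to 30.9 on the static and 20.4 to 29.2 on the actuated array. Unlike the Hspb1 pair, both copies had counts in each library of the fit: Hspa1b held between 27.7 and 73.9% of the summed counts of the pair, both extremes being in shallower groups (a high-intensity and a control library), and 47.2 to 51.6% in the 4 actuated libraries.

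Hspa8 was the steadiest member and Hsp90aa1 varied more. Hspa8, the HSP70 of unstressed cells, lay between 2721 and 3224 CPM in all 21 libraries, and its group medians ran from 2814 CPM (actuated) to 3106 CPM (control). Hsp90aa1, the inducible form of cytosolic HSP90, was at 2732, 2770, 2795 and 2842 CPM at high intensity, against 2814, 2825, 3021, 3742 and 4565 CPM in the control. The high-intensity libraries were close together at the lower end of the control range and overlapped it, and the log2 difference of -0.29 (SE 0.13, adjusted p = 0.269, edgeR) did not pass and turned its sign on TPM (0.25, adjusted p = 0.450, limma on log2(TPM + 1)). TPM moved the median of all genes in this comparison by 0.53, and with TPM rescaled by TMM the difference of Hsp90aa1 was -0.33. The low-intensity libraries (2938 to 4201 CPM) lay above all 4 high-intensity libraries, a pair of groups in which no gene was called.

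Of the partners of HSP70, Bag3, which links HSP70 to small heat shock proteins and to selective autophagy, came nearest to Hspb1. It was at 37.1, 44.9, 47.3, 61.7 and 62.9 CPM at low intensity and at 18.2, 24.6, 27.0, 38.1 and 53.6 CPM in the control. All but 1 of the low-intensity libraries were above 4 of the 5 controls, and the groups overlapped. The log2 difference was 0.65 (SE 0.24, adjusted p = 0.177, edgeR). At high intensity Bag3 was at 30.9, 38.1, 40.9 and 61.6 CPM, with a log2 difference of 0.40 (SE 0.25, adjusted p = 0.476, edgeR).

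Dnajb1, the J-domain partner of inducible HSP70, had group medians between 31.1 CPM (low intensity) and 37.4 CPM (high intensity), and its lowest library was a control at 11.5 CPM. Hsph1, the exchange factor HSP110, had group medians between 229 CPM (actuated) and 263 CPM (high intensity). Hsf1, the transcription factor of the response, was low, with group medians from 10.3 CPM (static) to 17.3 CPM (control). All 3 genes overlapped between the control and each of the other groups.

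The 8 members other than Hspb1 and Hsp25-ps1 gave no call in any of the 5 comparisons. Their median log2 difference was 0.07 for high intensity, 0.03 for low intensity and 0.03 for the static array, each against control, where the median of all genes tested was 0.00, -0.01 and 0.00. It was 0.08 for high against low intensity and -0.02 for actuated against static, where all genes had 0.01 and 0.00. The 3 comparisons with the control use the same 5 control libraries, so their values are not independent.

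The other genes of the pathway were taken from 8 lists of 81 genes in all, of which 72 were fitted. At low intensity 2 of the 72 were called higher and none lower, and 43 lay above 0, with a median log2 difference of 0.04. Over all genes tested 0.597% were called and 49.1% lay above 0. Hmox1, the stress-inducible heme oxygenase, had 24.5 to 54.8 CPM against 11.2 to 21.03 CPM in the control. Its log2 difference was 1.16 (SE 0.24, adjusted p = 0.0293, edgeR). Stip1, which hands clients from HSP70 to HSP90, had 128 to 192 CPM against 100 to 130 CPM and a log2 difference of 0.50 (SE 0.11, adjusted p = 0.0372, edgeR). The Hmox1 call was lost without low-intensity replicates 1 or 2 or control replicates 3 or 5 (adjusted p from 0.0504 to 0.112, edgeR), and the Stip1 call without any one of 10 libraries, namely actuated 1 and 4, static 2, low-intensity 1, 2 and 5 and control 1, 2, 3 and 5 (up to 0.120).

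At high intensity 1 of the 72 other chaperone genes was called higher and none lower, with 29 above 0 and a median of -0.05. Of all genes tested 0.462% were called and 50.3% lay above 0. The called chaperone gene was Serpinh1, the collagen chaperone of the endoplasmic reticulum also known as HSP47, at 127 to 248 CPM against 77.2 to 123 CPM (log2 difference 1.15, SE 0.26, adjusted p = 0.0468, edgeR). The call was kept without static replicate 4, high-intensity replicate 6 or low-intensity replicates 2 or 3 and lost without any one of the other 17 libraries (adjusted p up to 0.175, edgeR). None of the 72 was called for the static array against control, where 10 had an unadjusted p under 0.05 and DESeq2 called 2 (limma voom 0), nor for high against low intensity (8 at an unadjusted p under 0.05) or actuated against static (0), with 0 by DESeq2 and by limma voom in both. Of all genes, 12.6, 7.68 and 0.38% had an unadjusted p under 0.05 in these comparisons, in that order.

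Cryab, a small heat shock protein that forms mixed oligomers with HSPB1, was singled out after its values were seen. It was at 1.70, 7.59, 15.4, 23.5 and 24.8 CPM at low intensity and at 0.701, 0.769, 1.16, 1.87 and 6.61 CPM in the control, with the highest values in the same 2 libraries, replicates 1 and 5, as Hspb1. The groups overlapped at their ends and the log2 difference of 2.67 (SE 0.70, adjusted p = 0.0615, edgeR) did not pass. Leaving out 1 library moved it between 2.40 and 3.72, with adjusted p up to 0.172 (edgeR), and it passed in 2 of 21 such fits, without low-intensity replicate 3 (2.96, adjusted p = 0.0241) or control replicate 1 (3.72, adjusted p = 0.0401). Of the 4 fitted genes in the list of small heat shock proteins, 2 lay above 0 at low intensity, with log2 differences from -1.52 to 2.67. Hspb11, placed on that list by its symbol, lay lower, at 1.36 to 8.85 CPM at low intensity and 8.98 to 18.9 CPM in the control. Whether Hspb11 acts as a small heat shock protein was not examined, so the range of the list may not describe that family. On the static array Hspb11 was at 4.39 to 8.14 CPM. The most abundant gene of each list by TPM in the control was Hsp90ab1 (1459 TPM, constitutive HSP90), Calr (964 TPM, endoplasmic reticulum), Tcp1 (600.3 TPM, TRiC chaperonin), Ubb (532 TPM, ubiquitin), Dnaja1 (298 TPM, J-domain), Bag1 (93.3 TPM, BAG family), Hspb11 (25.7 TPM) or Hsf2 (16.1 TPM, a heat shock factor), and none of these 8 was called in any comparison.

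**Figure D3:**
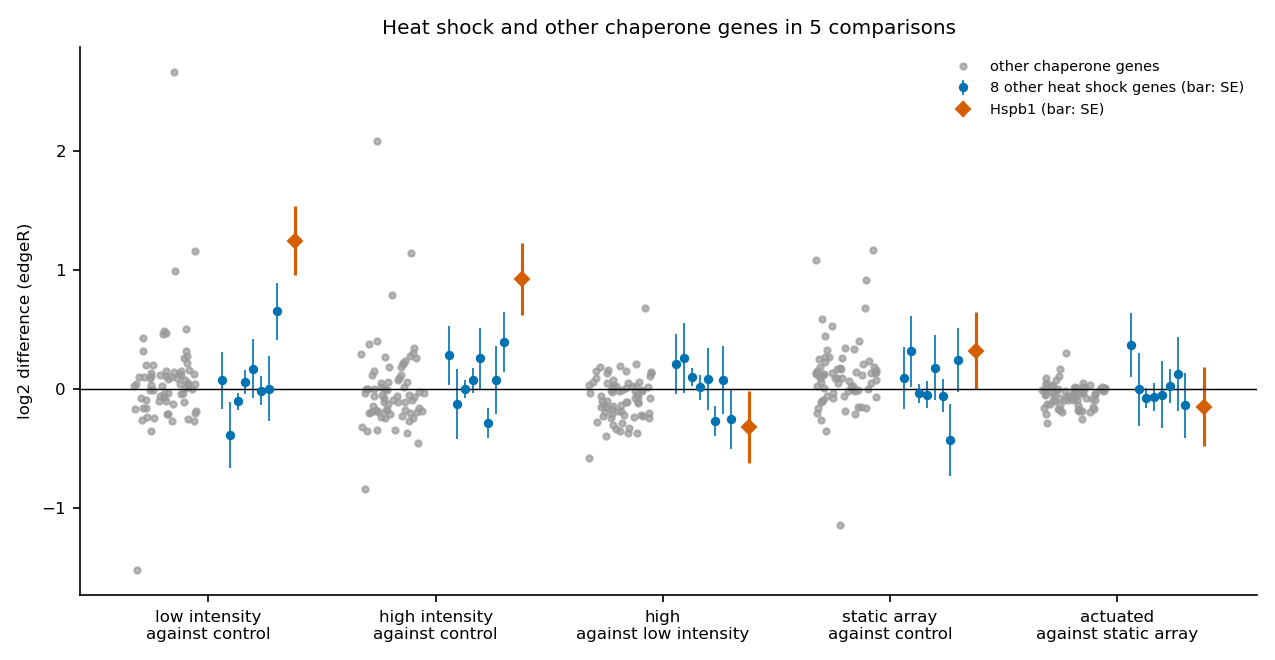
Log2 difference (edgeR) in the 5 comparisons for the 72 fitted other chaperone genes (grey), the 8 heat shock genes other than Hspb1 and Hsp25-ps1 (blue, bars of 1 SE) and Hspb1 (orange, bar of 1 SE); Hsp25-ps1 is left out because its control counts are 0. Hspb1 stands at 1.25 and 0.93 against control at low and high intensity, where the other 8 genes have medians of 0.03 and 0.07.

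Markers of other cell types moved with the medium groups in which Hspb1 was high. Fewer cells of a type and less RNA per cell cannot be told apart in bulk libraries. The 8 fibroblast and mesenchyme markers (Col1a1, Col1a2, Col3a1, Pdgfrb, Thy1, Lum, Dcn and Postn) were all above 0 in log2 difference against control at high intensity (8 of 8, median 1.11) and at low intensity (8 of 8, median 0.67), none of them called by edgeR (4 and 1 at an unadjusted p under 0.05, where 15.9 and 15.2% of all genes were). Their sum was 393 to 939 CPM in the control, 952 to 2423 with high and 277 to 2607 with low intensity, and 202 to 814 on the static and 86.3 to 621 on the actuated array. Low-intensity replicates 5 and 1, with the highest Hspb1, had 1057 and 333 CPM of these markers, and replicate 2, with the largest sum of 2607 CPM, had 65.9 CPM of Hspb1.

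The 7 skeletal muscle markers summed to 8.46 to 69.3 CPM in the control, 16.5 to 171 with high and 6.47 to 140 with low intensity, 6.10 to 108 on the static and 4.30 to 25.1 on the actuated array. Only 3 of the 7 passed the filter, Myod1 and Myog were at 0 in all 5 controls, and Ckm was at 0 in all high-intensity and static libraries of the fit. Low-intensity replicates 5 and 1 had 140 and 41.8 CPM. All 3 fitted markers were above 0 against control at high intensity and 2 of 3 at low intensity, with 2 and 1 at an unadjusted p under 0.05 and 0 called by edgeR. Des, the muscle intermediate filament desmin, had the median difference of the 3, 2.17 (SE 0.80, adjusted p = 0.171, edgeR) and 1.27 (SE 0.77, adjusted p = 0.459, edgeR). The 8 neuron markers were below 0 at high intensity (0 of 8 above, median -0.28) and mostly at low intensity (1 of 8 above, median -0.21). None of them was called by edgeR, with 5 and 1 at an unadjusted p under 0.05, where 15.9 and 15.2% of all genes were. Of the 6 astrocyte and radial glia markers 5 were above 0 at low intensity (median 0.21, 2 at an unadjusted p under 0.05). Only Vim, the intermediate filament vimentin, was called, as higher (log2 difference 1.01, adjusted p = 0.0352, edgeR). Fabp7 of the same list lay below 0 (-0.33, adjusted p = 0.258, edgeR), so Vim does not stand for the list. On the static array the 5 markers of the oligodendrocyte lineage were all above 0 (median 1.86, 0 called by edgeR, 4 at an unadjusted p under 0.05). They were also all above 0 at high intensity (median 0.36) and low intensity (median 0.48). The 6 astrocyte and radial glia markers were all above 0 on the static array (median 0.45, 0 called by edgeR, 3 at an unadjusted p under 0.05, where 12.6% of all genes were). Of the 7 fitted motor neuron markers 2 were above 0 there (median -0.29). Only Slc5a7, a choline transporter, was called, as lower (log2 difference -1.88, adjusted p = 0.00392, edgeR). At low intensity Slc5a7 was also below 0 (-1.08, adjusted p = 0.0580, edgeR). The lower motor neuron markers were not particular to the static array. Of the 7, 0 were above 0 at high intensity (median -0.30) and 1 at low intensity (median -0.51). The summed motor neuron markers of the static array (548 to 675 CPM) overlapped the control (599 to 866 CPM). The part of these cell types in the heat shock gene results was not tested.

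**Figure D4:**
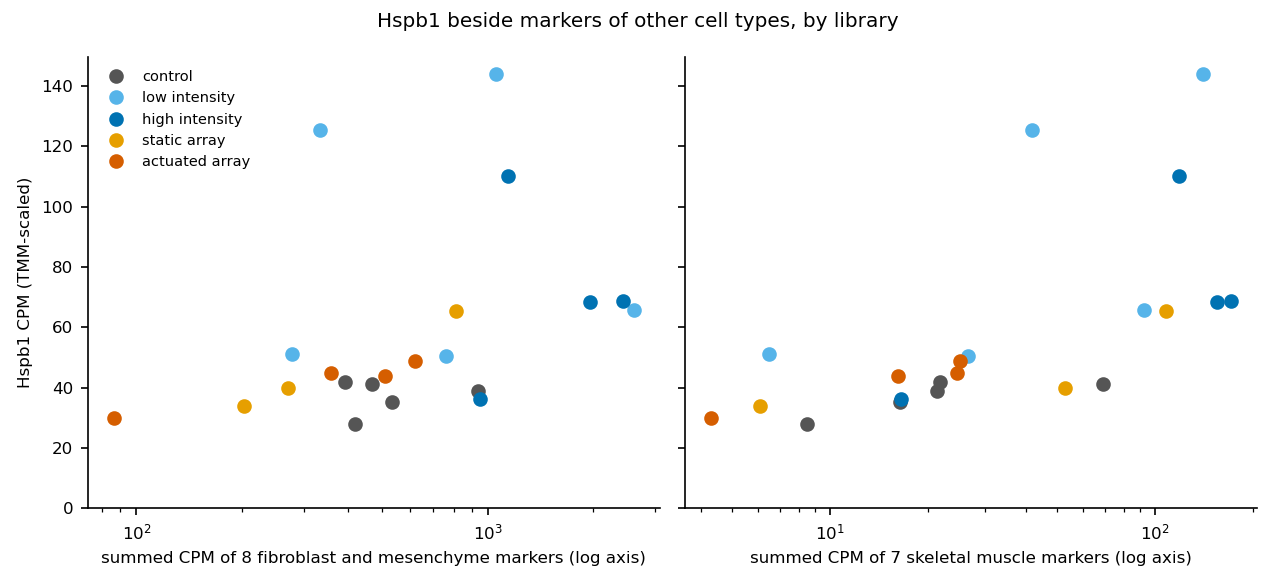
TMM-scaled CPM of Hspb1 in the 21 libraries of the fit against the summed CPM of 8 fibroblast and mesenchyme markers (left) and of 7 skeletal muscle markers (right), both on log axes, colored by group. The 2 libraries with the highest Hspb1, low-intensity replicates 5 and 1 at 144 and 125 CPM, have 1057 and 333 CPM of the first list and 140 and 41.8 CPM of the second.

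The protein-coding genes most like Hspb1 were ranked by the Spearman correlation of log2 CPM over the 21 libraries, among 11329 genes with a mean of at least 5 CPM. As a ranking with no test, over libraries that share their groups and depths, they were Anxa3 (0.930, an annexin), Lox (0.900, a collagen cross-linking enzyme), Frmd6 (0.896), Plau (0.895, urokinase) and Anxa1 (0.888). Each had a higher group median at both intensities than in the control, for example 42.3 CPM at low intensity, 25.9 at high intensity and 1.05 in the control for Anxa3, and 23.5, 47.4 and 6.55 CPM for Lox. Of the 8 other protein-coding members, the nearest were Bag3 at rank 738 (0.510), Dnajb1 at 1021 (0.453) and Hsph1 at 2726 (0.226), and the farthest was Hsp90aa1 at 9507 (-0.349). For Hspa1a plus Hspa1b the 5 nearest were Sfrp2 (0.787), Ephb6 (0.782), Tle5 (0.756), Glra2 (0.753) and Megf11 (0.751), with Hspb1 at -0.173, Hsph1 at -0.447 and Hsf1 at -0.521.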

How the data were processed

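The authors deposited one table of estimated counts and one of TPM per gene for 26 libraries; the values were made by the authors, and each TPM column sums to 1000000. The submitters' processing notes name BWA 0.7.12-r1039, bedtools 2.25.0, STAR and Salmon and the builds mm10, hg19 and GRCm39 without roles, so which of them made the tables, and on which build, is not given in the sources used here. Per the labels, RNA (4 ng, or the full volume for the 8 samples of lowest concentration) was made into ribosome-depleted libraries with 5 and 15 cycles of PCR and read as pairs of 50 bases.

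The deposited counts were whole numbers. The 21 libraries with at least 1000000 protein-coding counts entered one edgeR 4.0.16 quasi-likelihood fit over 5 groups (TMM, filterByExpr, R 4.3.3), with p-values adjusted by Benjamini-Hochberg over all 14730 genes and a threshold of 0.05; the fit was tested on simulated data. Alternatives used DESeq2 1.42.0, limma 3.58.1 and other filters, scalings and library sets. Transcripts were aligned with Biopython 1.88. Replicate numbers were not used as pairs, since no label ties samples of the same number. Correlations of same-numbered deviations lay between -0.225 and 0.182, with 2 of 3 pairs of actuated and static libraries above 0.1. With 2 to 4 pairs per comparison they cannot exclude a pairing. The members and all lists were chosen with earlier results of these data known. Named were all 10 members, other chaperone genes called in any comparison, the gene of highest median control TPM in each list, and the 5 genes most like Hspb1 and like Hspa1a plus Hspa1b. Marker lists covered 9 cell types. Besides those given with the results, astrocyte and radial glia markers summed to 2887 to 5992 CPM, oligodendrocyte lineage to 77.2 to 542, pluripotent cells to 2.69 to 18.7, endothelium to 0.680 to 34.6 and microglia and blood to 0 to 7.95.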

Additional observations from a re-analysis of the deposited data

Results flagged for a closer look

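Among 40 sets of 4 or 5 libraries, 2 held a library far from the others, about what chance gives at 1 in 20. Hsph1 in low-intensity replicate 1 was at 311.8 CPM, where the other 4 libraries lay between 239.6 and 247.6. Hsp90aa1 in low-intensity replicate 5 was at 4201 CPM, where the others lay between 2938 and 3299. These are the 2 libraries with the highest Hspb1.

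The 5 shallow libraries, outside the fit, held 9 values of 50 whose 95% Poisson lower limit lay above the highest control library of the fit, all per 1000000 protein-coding counts. This limit covers counting error only, since reads without molecular identifiers are not independent molecules. For Hsp25-ps1 any count passes it, because those controls were at 0. Hspb1 was at 113.2 in high-intensity replicate 5 (39 counts), against at most 51.75 in those controls. Hsp25-ps1, at 0 in those controls, was at 6.555 in static replicate 3 (3 counts), 17.41 in high-intensity replicate 5 (6 counts) and 29.39 in control replicate 4 (8 counts). Control replicate 4 also had Hspa1b at 77.15 (21 counts, at most 33.11 in the other controls) and no Hspa1a. High-intensity replicate 4 had Hsph1 at 580.5, Hsp90aa1 at 7601 and Bag3 at 179.0, against at most 336.3, 5260 and 61.77. Hsf1 was at 41.51 in static replicate 3, against at most 21.86.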

How the results depend on the processing

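Results rest on few calls near the threshold. For the 10 heat shock genes (0, 2 and 1 called at high intensity, low intensity and static array, each against control), all 26 libraries, limma voom and the TPM table rescaled by TMM (an alternative chosen after seeing the data) each gave 0, 0 and 0 calls. A fit of only the groups compared gave 0 at low intensity and 0 for the static array, in part because fewer genes and samples enter it. Without a low-count filter 2 were called at high intensity, and DESeq2 called 1. With near-identical copies summed, 1 was called at low intensity and 0 for the static array. Leaving out 1 library gave 0 to 1, 0 to 2 and 0 to 1 calls. Leaving out libraries of groups outside a comparison, and the bounds and pooled shares of Hsp25-ps1 without 1 library, were also chosen after seeing the data. For actuated against static array and high against low intensity, every alternative gave 0.

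For the 72 other chaperone genes (1, 2 and 0 called), all 26 libraries and limma voom gave 0 at high and 0 at low intensity, and only the groups compared gave 0 at low intensity. No low-count filter gave 3, 5 and 5, DESeq2 gave 5 at low intensity and 2 for the static array, and rescaled TPM gave 0 at high and 1 at low intensity. Leaving out 1 library gave 0 to 2 at high and 0 to 4 at low intensity. The cause of these moves was not tested.

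Over all genes, 68, 88 and 105 were called at high intensity, low intensity and static array, against 6, 4 and 2 with all 26 libraries, 700, 660 and 459 without a low-count filter, 467, 471 and 381 by DESeq2, and 17, 21 and 42 with only the groups compared; limma voom gave 0, 1 and 151 and rescaled TPM 3, 34 and 19. The replicate block was fitted only as an alternative, since no label ties the samples beyond a number: it gave 0 calls among heat shock genes at low intensity and 0 for the static array, and 0 among other chaperone genes at high and at low intensity, with 2, 8 and 36 of all genes called.

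TPM as deposited moved the median of all genes by 0.53, 0.64 and 0.50 (log2) at high intensity, low intensity and static array against control, while noncoding RNA of the class that holds 7SL took 30.4 to 63.2% of TPM in the controls and 13.2 to 34.6% in the other libraries of the fit. On log2(TPM + 1) and log2(TPM + 0.1) alike, 5 and 8 heat shock genes were called at high and low intensity, and 20 and 52 other chaperone genes; for the static array 23 of the latter were called with a pseudocount of 1 and 24 with 0.1. Beside that shift, the median of the 8 other members was 0.71 at high and 0.74 at low intensity on log2(TPM + 1). Hsp90aa1 at high intensity turned to 0.25 on both TPM scales. Taken from TPM, which corrects for length, the Hsp25-ps1 share had a median of 19.8% in the actuated and 18.8% in the static libraries, against 12.6% and 11.6% from counts over all libraries of those groups.

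The high-intensity shares of Hsp25-ps1 rest on 0 to 16 counts, and a count of 0 in the controls of the fit allows up to 0.863 to 1.40 CPM in a single library.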
